A study of Arabidopsis thaliana with 24 samples.

Results

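Expansins are small secreted proteins that loosen the cellulose and hemicellulose network of plant cell walls without cutting it, which lets cells enlarge under turgor. They act best in acid walls, and auxin and brassinosteroids, the growth hormones manipulated here, are both known to change expansin transcripts. In Arabidopsis the family has alpha-expansins (EXPA), beta-expansins (EXPB) and the expansin-like groups EXLA and EXLB, and a pair of alpha-expansins, EXPA7 and EXPA18, is known for root hairs. The genes described here are 10 alpha-expansins outside that pair: EXPA1 (AT1G69530), EXPA4 (AT2G39700), EXPA5 (AT3G29030), EXPA6 (AT2G28950), EXPA8 (AT2G40610), EXPA10 (AT1G26770), EXPA11 (AT1G20190), EXPA14 (AT5G56320), EXPA15 (AT2G03090) and EXPA17 (AT4G01630). They were taken from the table by locus, and each matched 1 row of 40246. All 10 had reads, and 9 passed the filter on low values (a mean of at least 5 normalized counts over all libraries), as 18948 genes of the table did. EXPA5 did not pass and was not tested.

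The libraries were made from roots of wild-type Arabidopsis thaliana (Col-0). At 3 days of age all seedlings were transferred to fresh medium for 12, 24 or 48 h, and roots were cut 0.2 to 0.5 cm from the tip. The mock medium held neither agent, and the other media held 0.8 nM brassinolide (BL, a brassinosteroid), 4 µM L-kynurenine (Kyn, which blocks aminotransferases that make auxin) or BL and Kyn at these doses together (BL+Kyn). Each of the 12 groups had 2 libraries that the labels call biological replicates, 24 in all, and transcripts were counted from their 3' ends with CEL-Seq2. Lower auxin was thus modelled by a drug and not by a mutant, and auxin itself is not among the values analysed here. The design asks what BL does, what Kyn does, and whether their joint effect differs from the sum of the single effects.

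Depth ran from 6.32 M to 31.37 M reads per library (M, mega-reads), with a median of 9.73 M. All 8 endodermis, 8 root hair, 5 xylem and 8 dividing-cell markers had reads in every library, and of 4 root cap markers FEZ had none in 1 library. The second libraries of BL at 12 h and of Kyn at 12 h stood apart. The summed normalized count of 10 leaf photosynthesis genes was 90861 in the former and 98584 in the latter, against 1513 to 6801 in the other 22 libraries. These libraries were labelled as root like the rest, and calls that rest on them are given with and without them. The 2 libraries of BL+Kyn at 48 h also differed more than usual, with a chi-square per degree of freedom over genes of 40.79, against 5.61 to 9.66 in the 9 groups that lacked a library standing apart. In bulk RNA of this kind, fewer cells of a type and less RNA per cell cannot be told apart.

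The transcripts of the members were distinct enough to be counted apart. No other annotated gene overlapped any of the 10, and no stretch of 50 bases, the length of the sequenced read, was shared between the annotated transcripts of a member and those of another of the 35 expansin genes that had any. Coding sequences ran from 759 to 909 bases, and identity between pairs ran from 52.4% to 76.6% with a median of 62.0% over 45 pairs. EXPA4 and EXPA6 were the closest pair at 76.6%, followed by EXPA10 and EXPA15 at 73.8%. EXPA8 and EXPA15, which changed in opposite directions under BL+Kyn, were 67.8% identical, so coding likeness did not go with a like response in that pair.

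The 250 bases before the annotated start are printed here for the 4 members with the smallest adjusted p in BL+Kyn against mock and for EXPA10, which shares with EXPA1 the longest run of upstream bases of any of the 45 pairs. All were read from the TAIR10.1 reference (RefSeq), 5′ to 3′ on the strand of the gene, and capitals mark matches to the motifs named after them. The window of EXPA8 lies at chr2:16950706-16950955 and that of EXPA15 at chr2:918672-918921, both on the minus strand. On the plus strand lie the windows of EXPA17 at chr4:700316-700565, EXPA1 at chr1:26141476-26141725 and EXPA10 at chr1:9259182-9259431. These windows end at the start in the reference, which can lie upstream of the start in the deposited gene coordinates given below.
EXPA8: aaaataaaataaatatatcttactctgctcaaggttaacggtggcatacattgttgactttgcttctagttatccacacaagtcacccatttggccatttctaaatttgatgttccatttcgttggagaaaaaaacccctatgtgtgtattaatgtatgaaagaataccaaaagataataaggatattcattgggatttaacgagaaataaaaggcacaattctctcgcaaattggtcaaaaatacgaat
EXPA17: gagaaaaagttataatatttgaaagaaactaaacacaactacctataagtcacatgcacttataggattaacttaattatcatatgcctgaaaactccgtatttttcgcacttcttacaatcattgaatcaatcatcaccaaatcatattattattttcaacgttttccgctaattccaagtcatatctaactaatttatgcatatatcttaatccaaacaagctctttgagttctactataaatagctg
EXPA15: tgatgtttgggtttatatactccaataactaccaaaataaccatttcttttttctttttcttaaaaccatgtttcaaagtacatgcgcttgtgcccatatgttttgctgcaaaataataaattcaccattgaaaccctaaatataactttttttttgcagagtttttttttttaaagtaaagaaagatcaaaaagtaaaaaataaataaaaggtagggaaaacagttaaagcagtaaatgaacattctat
EXPA1: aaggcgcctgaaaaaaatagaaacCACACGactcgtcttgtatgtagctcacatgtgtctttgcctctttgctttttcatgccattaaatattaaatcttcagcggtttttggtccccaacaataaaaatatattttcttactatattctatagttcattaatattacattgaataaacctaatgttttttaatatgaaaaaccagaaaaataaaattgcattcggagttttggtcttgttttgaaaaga
EXPA10: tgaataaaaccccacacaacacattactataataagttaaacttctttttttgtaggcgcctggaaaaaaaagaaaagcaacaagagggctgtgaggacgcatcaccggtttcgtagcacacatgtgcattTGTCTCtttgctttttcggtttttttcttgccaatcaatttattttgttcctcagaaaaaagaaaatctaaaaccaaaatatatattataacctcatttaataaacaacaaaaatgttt

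The motifs searched, on both strands, were CGTGTG and CGTGCG (the brassinosteroid response element bound by BZR1-type factors), the G-box CACGTG, and the auxin response elements TGTCTC and TGTCGG bound by auxin response factors. None of these 6-base words overlapped another in the members. CGTGTG was found before EXPA1, with its first base 226 bases from the start, and before EXPA6, and in 5.37% of the 27443 protein-coding genes with a full window. TGTCTC was found before EXPA10, 119 bases from the start, before EXPA6, and at 2 places before EXPA5, and in 10.9% of all genes. The other words were found before no member, against 1.57% of all genes for CGTGCG, 6.49% for CACGTG and 4.16% for TGTCGG. The windows of EXPA8, EXPA17 and EXPA15 held none of these words. EXPA1 and EXPA10 shared a run of 14 bases, ctctttgctttttc, at chr1:26141540-26141553 and chr1:9259316-9259329, where the median pair shared 9. A match describes the letters only.

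The plot of normalized counts by library shows the 10 members side by side. Each library's values are multiples of a single unit, as whole reads divided by a size factor would be, and levels are compared only within a gene. In each pair of values below, replicate 1 stands before replicate 2.

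**Figure D1:**
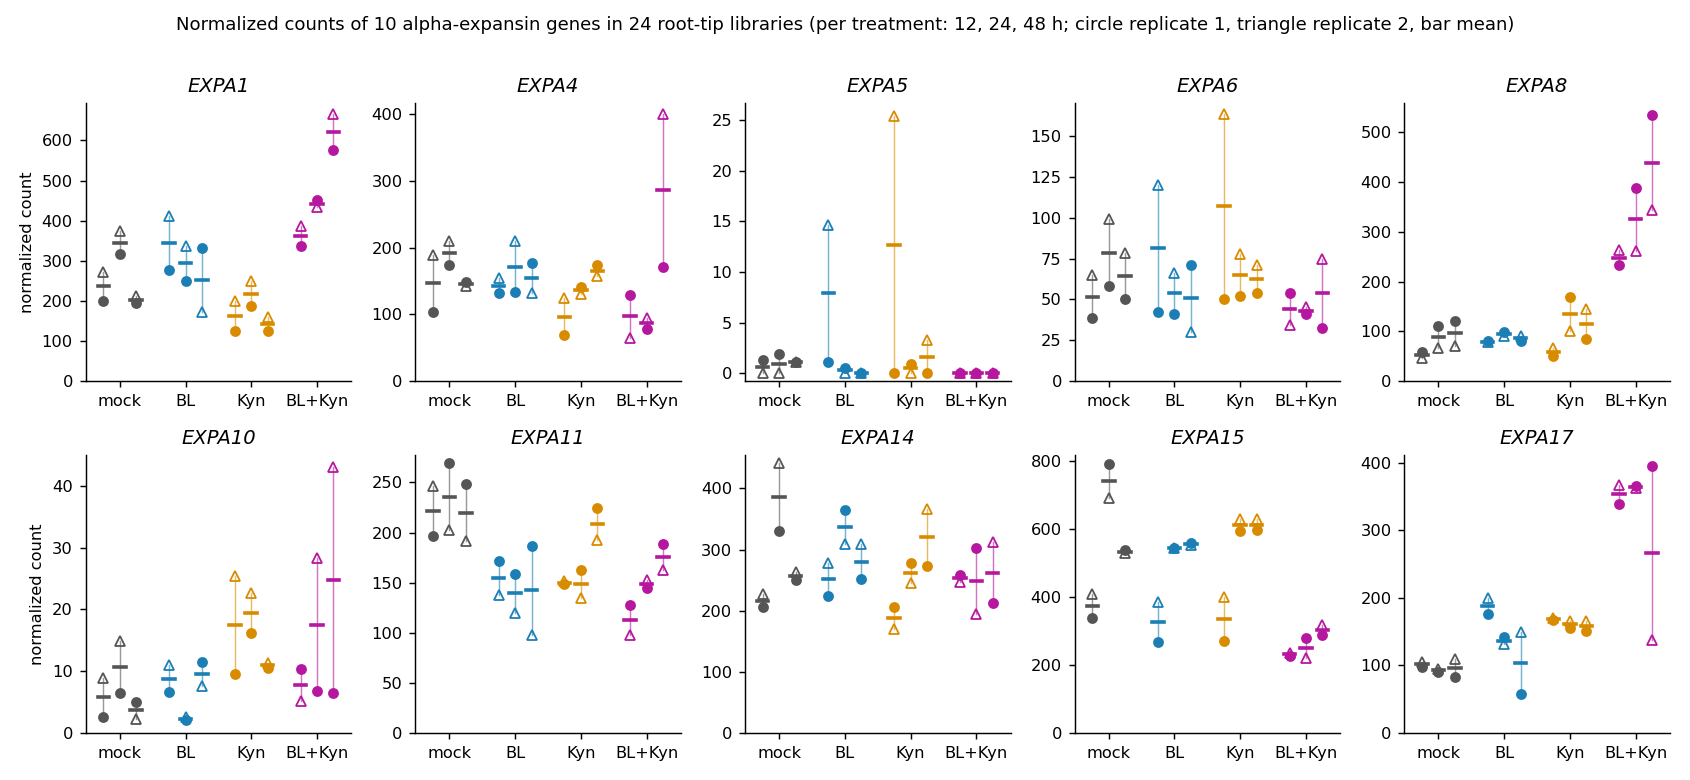
Normalized counts (y axis, linear) of the 10 alpha-expansins in each of 24 libraries, grouped by treatment (x axis) with 12, 24 and 48 h from left to right; circles are replicate 1, triangles replicate 2 and bars the mean of 2. EXPA8 and EXPA17 stood highest in BL+Kyn and EXPA15 lowest, while EXPA5 was near 0 except in the second libraries of BL and Kyn at 12 h (14.7 and 25.4).

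BL+Kyn moved the most members. Against mock, averaged over the 3 times, EXPA8, EXPA17 and EXPA1 rose and EXPA15 and EXPA11 fell, while EXPA4, EXPA6, EXPA10 and EXPA14 did not pass the test. That is 3 of 9 tested members higher, where 18.7% of all tested genes were higher, and 2 of 9 lower, where 17.6% of all were lower. The median fitted change of the 9 was -0.14 on the log2 scale, beside a median of 0.0 over all genes tested. Called means an adjusted p under 0.05 in limma, after Benjamini-Hochberg adjustment over all 18948 genes.

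EXPA8 (chr2:16948863-16950557, minus strand) had the largest fitted rise of the 9. Its normalized counts in mock were 59.1 and 45.8 at 12 h, 111 and 66.8 at 24 h, and 120.3 and 71.3 at 48 h. In BL+Kyn they were 234 and 263 at 12 h, 388 and 262 at 24 h, and 533 and 343 at 48 h. Every BL+Kyn library lay above every library of the other 3 treatments, whose highest value was 169 in Kyn at 24 h. The fitted change was 2.1 (SE 0.19, adjusted p = 1.73e-07, limma), a 4.29-fold rise, higher in 6 of 6 libraries. Fitted changes at single times were 2.23 at 12 h, 1.88 at 24 h and 2.19 at 48 h (SE 0.33 each).

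Neither agent alone brought EXPA8 to that level. In BL its values were 80.7 and 78.2, then 99.5 and 91.2, then 81.2 and 90.5 at the 3 times. In Kyn they were 50.5 and 66.9, then 169 and 100.3, then 84.6 and 144. Both treatments overlapped mock over their 6 libraries, with changes of 0.21 in BL (SE 0.19, adjusted p = 0.75, limma) and 0.33 in Kyn (SE 0.19, adjusted p = 0.477).

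EXPA17 (chr4:700653-701527, plus strand) is known in Arabidopsis as a target of the transcription factor LBD18 in lateral root emergence, a process that auxin drives. In mock its normalized counts were even, at 97.7 and 105 at 12 h, 89.9 and 95.2 at 24 h, and 83.0 and 109.8 at 48 h. In BL+Kyn they were 339.7 and 368 at 12 h, 365 and 363 at 24 h, and 395 and 137 at 48 h. All 6 BL+Kyn libraries exceeded all 6 mock libraries, though the second library at 48 h was low for its group. The fitted change was 1.68 (SE 0.21, adjusted p = 8.13e-06, limma), a 3.2-fold rise in 6 of 6 libraries. At 48 h alone the change was 1.28 (SE 0.37). Without that low library it was 2.04 (SE 0.33), and without its partner 0.52 (SE 0.33), so at 48 h the size of the rise rests on which library is read.

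EXPA17 was also higher in Kyn alone. In Kyn its values were 167 and 169.98, then 156 and 166, then 152 and 165, all above mock, whose highest value was 109.8. The change in Kyn was 0.75 (SE 0.21, adjusted p = 0.0471, limma) in 6 of 6 libraries. That call lay at the threshold. It was lost in 22 of 35 alternative fits, with adjusted p of 0.0548 to 0.142 in these. They include leaving out any library but those of BL and BL+Kyn at 48 h, although the change itself stayed between 0.68 and 0.81 when any single library was left out. In BL the values were 176 and 200.4 at 12 h, 142 and 131 at 24 h, and 58.4 and 149 at 48 h, so BL lay above mock at 12 and 24 h and overlapped it at 48 h. The BL change was 0.47 (SE 0.21, adjusted p = 0.386), and over 12 and 24 h alone it was 0.72 and passed the test (adjusted p = 0.00106).

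EXPA1 (chr1:26141836-26143496, plus strand) is known in Arabidopsis for a role in the root transition zone, where cells leave the meristem and start to elongate, and in lateral root initiation. Mock values were 200.51 and 272 at 12 h, 316 and 375 at 24 h, and 194 and 212 at 48 h. In BL+Kyn they were 337 and 386 at 12 h, 451 and 434 at 24 h, and 577 and 666 at 48 h. At each time both BL+Kyn libraries exceeded both mock libraries, while the ranges over all times overlapped. The fitted change was 0.86 (SE 0.16, adjusted p = 0.000434, limma), a 1.82-fold rise in 6 of 6 libraries. Single-time changes were 0.62 at 12 h, 0.36 at 24 h and 1.61 at 48 h (SE 0.28 each), and the test of whether the BL+Kyn response changed with time gave an adjusted p of 0.232.

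Kyn alone moved EXPA1 the other way. Its values in Kyn were 124 and 200.8 at 12 h, 186 and 250.04 at 24 h, and 125 and 160.2 at 48 h. All 6 lay below the mock mean of their time, and both Kyn libraries lay below both mock libraries at 24 and 48 h. The change was -0.58 (SE 0.16, adjusted p = 0.0448, limma). This call too was at the threshold and was lost in 14 of 35 alternative fits, with adjusted p of 0.0567 to 0.15. They include leaving out the first Kyn library of any time, any mock library but the first at 12 h, or any BL+Kyn library at 12 or 24 h. In BL the values were 277 and 411, then 249.9 and 337, then 332 and 172, 3 above and 3 below the mock mean of their time, with a change of 0.17 (SE 0.16, adjusted p = 0.765).

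EXPA15 (chr2:916854-918643, minus strand), which is known together with EXPA1, EXPA10 and EXPA14 from work on the root transition zone, went down under BL+Kyn. Mock values were 337 and 408 at 12 h, 789 and 689.96 at 24 h, and 536 and 529.5 at 48 h. BL+Kyn values were 226 and 236 at 12 h, 279 and 221 at 24 h, and 287 and 318 at 48 h. The highest BL+Kyn value lay below the lowest mock value. The fitted change was -1.02 (SE 0.10, adjusted p = 6.98e-07, limma), a 2.03-fold fall in 6 of 6 libraries. It was -0.68 at 12 h, -1.57 at 24 h and -0.82 at 48 h (SE 0.18 each).

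EXPA15 did not pass the test with either agent alone. BL values were 267 and 386, then 545 and 543, then 559 and 552. Kyn values were 270.5 and 399, then 593 and 628, then 597 and 628. Their changes were -0.20 in BL (SE 0.10, adjusted p = 0.496, limma) and -0.08 in Kyn (SE 0.10, adjusted p = 0.826). Without the photosynthesis-rich libraries they were -0.28 (adjusted p = 0.133) and -0.18 (adjusted p = 0.421). In these treatments and in mock the libraries at 12 h were lower than those at 24 and 48 h, whereas the BL+Kyn libraries stayed under 318 at all times.

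EXPA11 (chr1:6998489-6999817, minus strand) fell in BL and in BL+Kyn. Mock values were 197 and 247 at 12 h, 269 and 203 at 24 h, and 248 and 191 at 48 h. BL values were 171 and 138, then 158 and 119.9, then 186 and 98.02, and BL+Kyn values were 127 and 97.4, then 144 and 153, then 189 and 162. In both treatments the highest library lay below the lowest mock library. The change was -0.65 in BL (SE 0.15, adjusted p = 0.0243, limma) and -0.65 in BL+Kyn (SE 0.15, adjusted p = 0.00209), each in 6 of 6 libraries. In Kyn the values were 149 and 151, then 163 and 135, then 224 and 193, with a change of -0.42 (SE 0.15, adjusted p = 0.13). Over 12 and 24 h alone the Kyn change was -0.60 and passed (adjusted p = 0.0284).

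**Figure D2:**
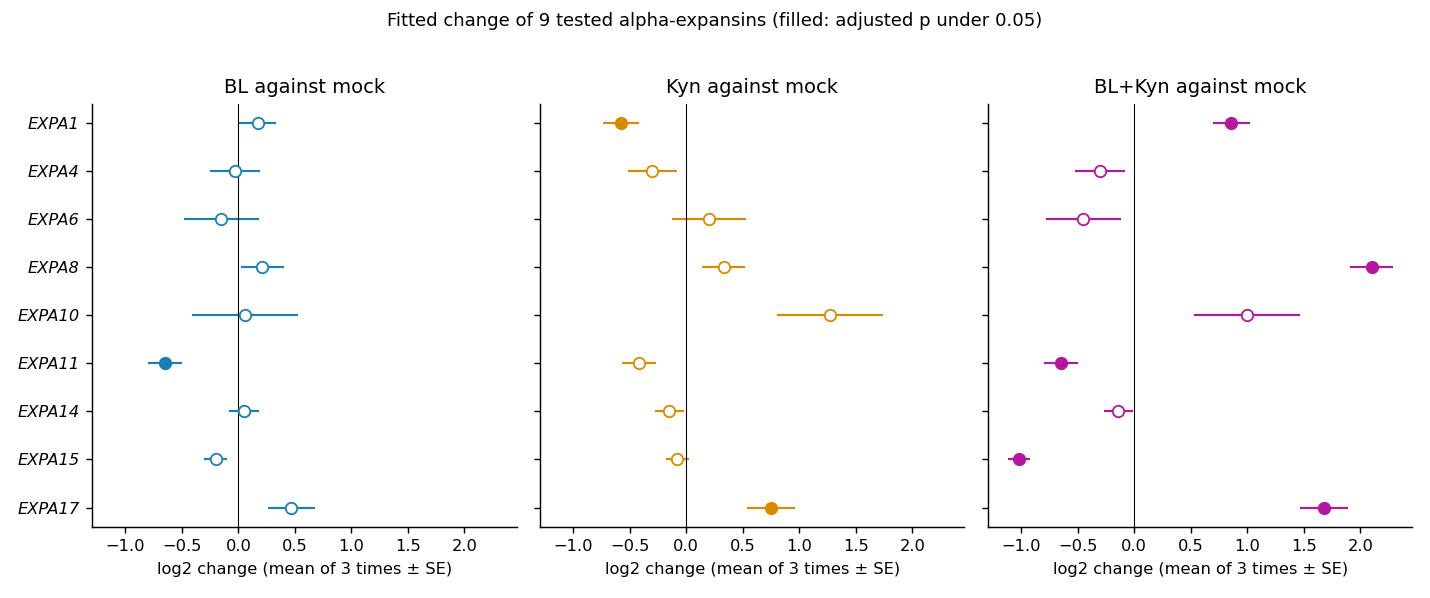
Fitted log2 change against mock (x axis, mean of 3 times, bars ± SE) of the 9 tested alpha-expansins (y axis) in BL, Kyn and BL+Kyn; filled points had an adjusted p under 0.05. EXPA11 was filled in BL (-0.65), EXPA1 and EXPA17 in Kyn (-0.58 and 0.75), and EXPA8, EXPA17, EXPA1, EXPA15 and EXPA11 in BL+Kyn.

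EXPA11 was the only member called in BL against mock. None of 9 was higher in limma, edgeR or DESeq2, where limma called 0.929% of all tested genes higher and 1 of 9 (EXPA17) had a positive change at an unadjusted p under 0.05, and 1 of 9 was lower, where 0.955% were, with a median change of 0.05 beside 0.0 over all genes. The call for EXPA11 did not survive leaving out the photosynthesis-rich BL library (-0.60, adjusted p = 0.0739, limma), nor leaving out the second BL library at 24 or 48 h, the second mock library at 12 h or the first at 24 or 48 h (adjusted p of 0.0742 to 0.0976). In Kyn against mock 1 of 9 was higher (EXPA17), where 1.78% of all genes were, and 1 of 9 lower (EXPA1), where 3.12% were, with a median of -0.08 beside 0.01. Without both photosynthesis-rich libraries EXPA1 stayed called in Kyn at -0.70 (adjusted p = 0.0137) and EXPA17 did not, at 0.74 (adjusted p = 0.105). The 5 calls in BL+Kyn all remained without these libraries.

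The members not called in BL+Kyn over the 3 times were EXPA14, EXPA4, EXPA10 and EXPA6. EXPA14 (chr5:22808641-22810237, plus strand), which like EXPA17 is known as a target of LBD18 in lateral roots, ranged from 206 to 441 in mock with a median of 256, and from 194 to 312 in BL+Kyn with a median of 253. Its change was -0.14 (SE 0.13, adjusted p = 0.43, limma), and its values in BL (224 to 365) and Kyn (169.98 to 366) overlapped mock as well. At 24 h alone its fitted changes were -0.65 in BL+Kyn (SE 0.22, adjusted p = 0.0505) and -0.54 in Kyn (SE 0.22, adjusted p = 0.486), and at 12 and 48 h in BL+Kyn 0.22 and 0.01. The 2 libraries of a group differed by at most 1.56-fold for EXPA14.

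EXPA4 (chr2:16543832-16545584, minus strand) had BL+Kyn values that went to either side of mock. They were 129.5 and 65.4 at 12 h and 78.6 and 95.0 at 24 h, but 172 and 399 at 48 h, while mock values were 104 and 189 at 12 h, 174 and 210.2 at 24 h, and 149 and 143 at 48 h. Fitted changes were -0.60 at 12 h, -1.14 at 24 h and 0.84 at 48 h (SE 0.38 each), of which the change at 24 h had an adjusted p of 0.0441, and over the 3 times the change was -0.30 (SE 0.22, adjusted p = 0.31, limma). Over 12 and 24 h alone it was -0.87 and passed the test (adjusted p = 0.0172). The value of 399 came from the second library of BL+Kyn at 48 h, without which the change at 48 h was 0.24 (SE 0.40). Over the 3 times the change without that library was -0.50 and did not pass (adjusted p = 0.0565), and with the photosynthesis-rich libraries also left out, a setting added after seeing the data, it was -0.50 with an adjusted p of 0.0413.

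EXPA10 (chr1:9259605-9261313, plus strand), known in Arabidopsis from leaf and petiole growth, was read rarely, with 49 reads over all mock libraries and 89 over all Kyn libraries. In mock its normalized counts were 2.57 and 8.9, then 6.42 and 14.8, then 5.01 and 2.26, and in Kyn 9.52 and 25.4, then 16.2 and 22.7, then 10.6 and 11.3. At each time both Kyn libraries lay above both mock libraries, and the change of 1.27 (SE 0.47, adjusted p = 0.159, limma) did not pass. BL+Kyn values were 10.3 and 5.13, then 6.74 and 28.3, then 6.48 and 43.0. That last pair differed 6.63-fold, and the change of 1.00 (SE 0.47, adjusted p = 0.102) did not pass either. Leaving out single libraries moved it both ways. It passed without the first BL+Kyn library at 48 h (1.43, adjusted p = 0.0187) or at 24 h (1.32, adjusted p = 0.0403), and was 0.57 (adjusted p = 0.323) without the second at 48 h. DESeq2 gave 1.29, with an adjusted p that rounds to 0.05 and lies just under the threshold. Without the photosynthesis-rich libraries the Kyn change was 1.05 (adjusted p = 0.408).

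EXPA6 (chr2:12431341-12433595, minus strand) and EXPA5 (chr3:11011308-11013358, minus strand) were both highest in the photosynthesis-rich libraries. EXPA5, known in Arabidopsis for growth that depends on brassinosteroids, had normalized counts of 14.7 and 25.4 there, from 12 and 19 reads, and 15 reads in the other 22 libraries together, 8 of which had any. It had 0 reads in all 6 BL+Kyn libraries, a count that allows up to 3 reads in each. EXPA6 had 119.8 and 163 in the photosynthesis-rich libraries, against 42.5 and 50.5 in their partners and 30.2 to 98.9 in the other 22. The part of leaf or shoot material in these values was not tested. The change of EXPA6 was -0.15 in BL with these libraries and -0.39 without (adjusted p = 0.916 and 0.663, limma), and 0.20 in Kyn with them and -0.08 without (adjusted p = 0.879 and 0.974). In BL+Kyn against mock these libraries enter the estimate of the spread but not the group means. That change of EXPA6 was -0.45 with them (SE 0.33, adjusted p = 0.307, limma) and -0.45 without.

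**Figure D3:**
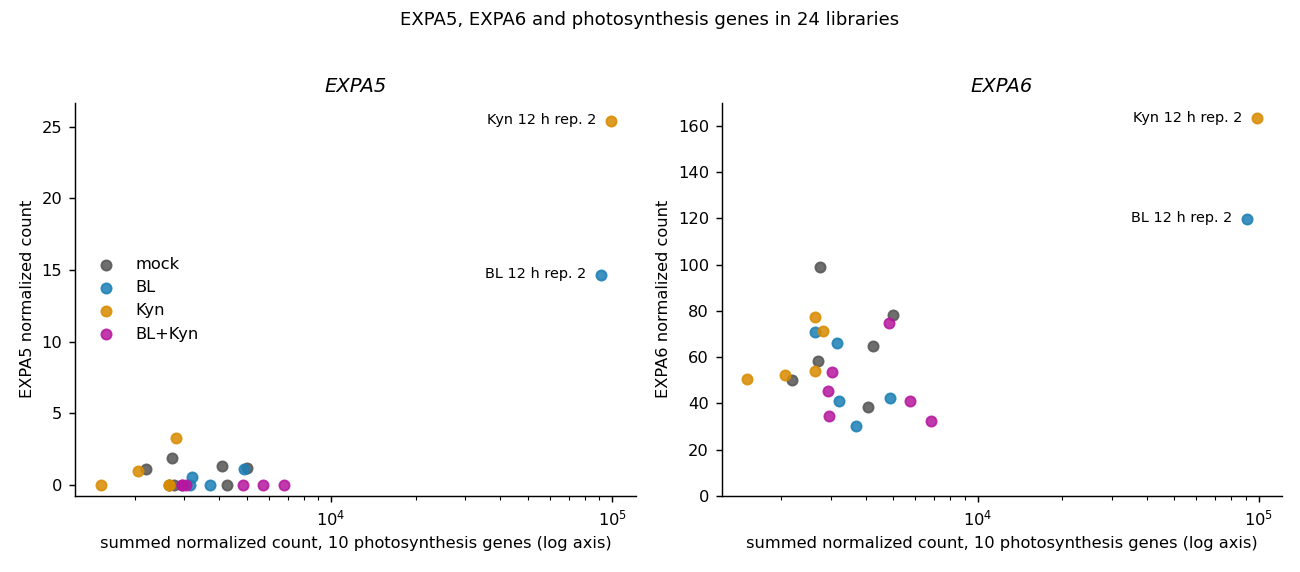
Normalized count of EXPA5 (left) and EXPA6 (right) on the y axis against the summed normalized count of 10 photosynthesis genes (x axis, log scale) in each of 24 libraries, coloured by treatment. The second libraries of BL and Kyn at 12 h lie at 90861 and 98584 on the x axis and hold the highest values of both genes.

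None of the other 8 members was higher in both photosynthesis-rich libraries than in all other 22. The share of all genes that were was not counted, so how usual this is among genes is not known. Their ratio to the partner library ran from 0.806 (EXPA11) to 1.68 (EXPA10) in BL and from 0.826 (EXPA14) to 2.67 (EXPA10) in Kyn. It was 1.17 and 1.82 for EXPA4, 1.48 and 1.62 for EXPA1, 1.45 and 1.47 for EXPA15, 1.14 and 1.02 for EXPA17, and 0.969 and 1.33 for EXPA8.

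The joint treatment differed from the sum of the single treatments for 3 of the 9 members. The interaction compares the BL+Kyn change with the BL change plus the Kyn change on the log2 scale, and 0 means that the changes add up. EXPA8 and EXPA1 had a higher level than the sum gives, 2 of 9 where 1.66% of all genes did, and EXPA15 a lower level, 1 of 9 where 2.32% did. For EXPA8 the single changes summed to 0.55 and BL+Kyn gave 2.1, an interaction of 1.55 (SE 0.27, adjusted p = 0.00839, limma). For EXPA1 they summed to -0.41 and BL+Kyn gave 0.86, an interaction of 1.27 (SE 0.23, adjusted p = 0.0107). For EXPA15 they summed to -0.28 and BL+Kyn gave -1.02, an interaction of -0.74 (SE 0.15, adjusted p = 0.0157).

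EXPA17 and EXPA11, although called in BL+Kyn, were not called for the interaction. The changes of EXPA17 summed to 1.21 against 1.68 observed (interaction 0.46, SE 0.30, adjusted p = 0.387, limma), and it was called only when the second library of BL+Kyn at 48 h was left out (0.72, adjusted p = 0.0389). Those of EXPA11 summed to -1.08 against -0.65 observed (0.43, SE 0.21, adjusted p = 0.238). The median interaction of the 9 members was 0.04, beside 0.01 over all genes tested. Without the photosynthesis-rich libraries the interaction was 1.61 for EXPA8, 1.48 for EXPA1 and -0.56 for EXPA15. For EXPA15 that was smaller in size than the -0.74 of all libraries. Leaving out any single library gave 1.43 to 1.68 for EXPA8, 1.12 to 1.43 for EXPA1 and -0.84 to -0.65 for EXPA15. The 3 interaction calls were lost when only 12 and 24 h were fitted. There EXPA8 had 1.3 (adjusted p = 0.0509, limma), EXPA1 0.97 (0.0858) and EXPA15 -0.58 (0.175).

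**Figure D4:**
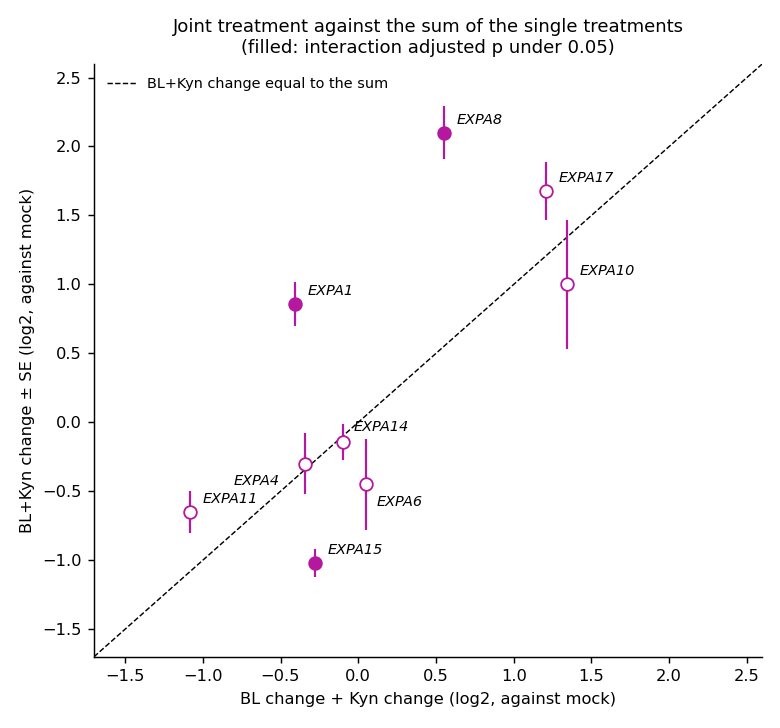
BL+Kyn change against mock (y axis, log2, bars ± SE) against the sum of the BL and Kyn changes (x axis, log2) for the 9 tested alpha-expansins; the dashed line marks equal values and filled points had an interaction adjusted p under 0.05. EXPA8 (0.55 and 2.1) and EXPA1 (-0.41 and 0.86) lie above the line and EXPA15 (-0.28 and -1.02) below it.

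BL+Kyn was also set against each agent alone. These comparisons share the BL+Kyn libraries with each other and with the comparison to mock, as BL, Kyn and BL+Kyn share the mock libraries. Against BL, EXPA8 (1.89), EXPA17 (1.21) and EXPA1 (0.69) were higher, 3 of 9 where 14.3% of all genes were, and EXPA15 (-0.83) was lower, 1 of 9 where 13.4% were. Against Kyn, EXPA8 (1.77), EXPA1 (1.45) and EXPA17 (0.93) were higher, 3 of 9 where 15.5% were, and EXPA15 (-0.94) was lower, 1 of 9 where 14.8% were. Adjusted p ran from 8.84e-07 to 0.00399 for these 8 changes (limma). With only 12 and 24 h fitted, EXPA1 did not pass against BL (0.35, adjusted p = 0.189). For EXPA1 this places the effect of Kyn at -0.58 without BL and at 0.69 with BL. EXPA11 did not pass against either agent, with 0.01 against BL (SE 0.15) and -0.22 against Kyn (SE 0.15). The median over the 9 members was 0.01 against BL and 0.0 against Kyn, beside 0.0 and 0.01 over all genes.

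No member was called for a change with time. In mock at 48 h against 12 h, 0 of 9 were called, where 0.369% of all genes were, with 2 of 9 at an unadjusted p under 0.05 (EXPA8 at 0.82, SE 0.33, and EXPA15 at 0.52, SE 0.18), and edgeR and DESeq2 called 0 each. For the response to BL and that to Kyn the moderated F test over the 3 times called 0 of 9 and 0.0% of all genes each, with 1 of 9 at an unadjusted p under 0.05 in each (EXPA10 for BL, EXPA14 for Kyn), and edgeR and DESeq2 again called 0. For the response to BL+Kyn it called 0 of 9, where 1.16% of all genes were called, with 4 of 9 at an unadjusted p under 0.05 (EXPA4, EXPA15, EXPA1 and EXPA14). In that test edgeR called 0 and DESeq2 called EXPA4.

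Ranked by the mean of 12 groups, the top 3 places of EXPA8 and EXPA17 belonged to BL+Kyn at its 3 times, as did those of EXPA1. The 3 lowest places of EXPA15 were the BL+Kyn groups. The libraries of neighbouring groups overlapped at most of the 11 steps for every member but EXPA15, where they did at 5 of 11. Neighbours overlapped at 8 of 11 steps for EXPA8 and EXPA17, at 9 of 11 for EXPA1, and at all 11 for EXPA5, EXPA6, EXPA10 and EXPA14. For EXPA8 the step from BL+Kyn at 12 h (248, SD 20.6, n = 2) to Kyn at 24 h (135, SD 48.8, n = 2) had no overlap. For EXPA11 the 3 mock groups held the top places at 236, 222 and 219.8, with Kyn at 48 h next at 209, and the library ranges of these 4 groups overlapped.

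Members were compared for the shape of their pattern by Pearson's r over the 12 group means of log2(normalized count + 1), as a description of groups that share treatments and controls. EXPA8 was most like EXPA17 (r = 0.76) and EXPA1 (0.71), and EXPA14 like EXPA15 (0.66) and EXPA4 (0.56). EXPA15 and EXPA17 were the most unlike pair (-0.79). EXPA4 and EXPA6, closest in coding sequence, had r = 0.05, and EXPA10 and EXPA15, next closest, had -0.18.

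**Figure D5:**
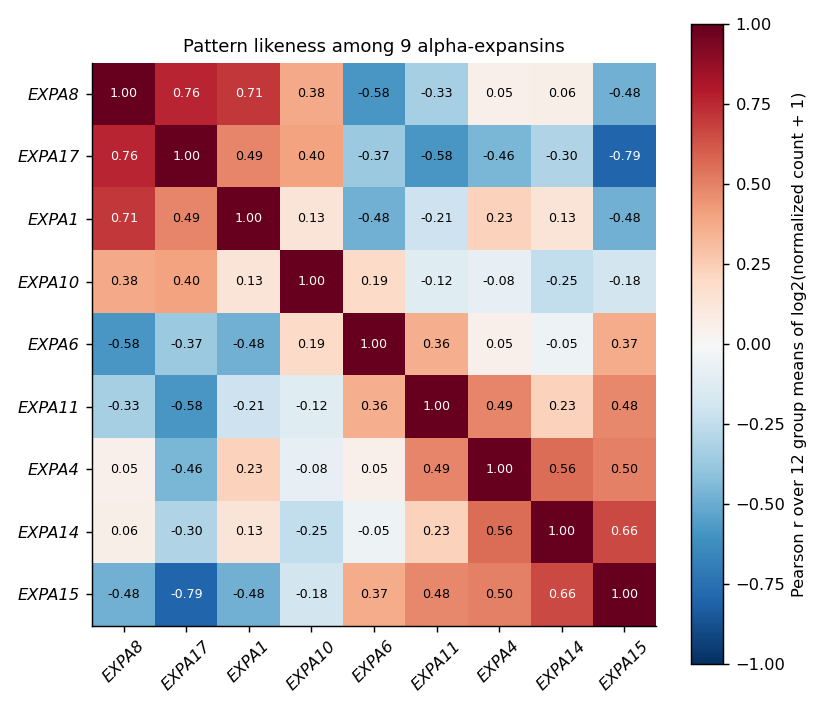
Pearson's r between 9 alpha-expansins over 12 group means (colour and printed number). EXPA8, EXPA17 and EXPA1 form a block with r of 0.49 to 0.76, and EXPA15 lies opposite EXPA17 at -0.79.

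Outside the expansin family, the genes with the most similar pattern were sought among 7159 genes with a symbol and a mean of at least 20 normalized counts, for the 5 members called against mock in a comparison over the 3 times. For EXPA8 they were WRKY11 (r = 0.962 over 12 group means), a WRKY transcription factor, and SNF7.2 (0.948), an ESCRT-III subunit. For EXPA17 they were PPCK1 (0.966), a kinase of phosphoenolpyruvate carboxylase, and IOS1 (0.964), a receptor-like kinase. For EXPA15 they were SHM3 (0.978), a serine hydroxymethyltransferase, and mtACP3 (0.977), a mitochondrial acyl carrier protein. For EXPA1 they were HB-1 (0.907), a homeodomain-leucine zipper factor, and ZIP1 (0.892), a metal transporter, and for EXPA11 SUVH1 (0.901), a SET-domain protein, and YSL8 (0.896), of the yellow stripe-like family. The group means share libraries between genes, so these values rank likeness and carry no test.

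Of the 26 other expansin genes, 13 passed the filter. In BL+Kyn against mock limma called 5 of these 13 higher and 5 lower, where 18.7% and 17.6% of all genes were, with a median of -0.09 on the log2 scale beside 0.0 over all genes. EdgeR called 4 higher and 4 lower and DESeq2 5 and 4, and EXPA9 (adjusted p = 0.0491) and EXLA2 (adjusted p = 0.0415) lay nearest the threshold in limma. The root hair expansins EXPA18 and EXPA7 fell by 2.66 (SE 0.16) and fell by 2.21 (SE 0.18), EXPA3 fell by 1.67 (SE 0.34), EXPB3 fell by 0.89 (SE 0.25) and EXLA2 fell by 0.63 (SE 0.23). The expansin-like genes EXLA3, EXLB1 and EXLA1 rose by 3.5 (SE 0.51), 1.29 (SE 0.16) and 1.02 (SE 0.11), and EXPB1 by 0.37 (SE 0.10) and EXPA9 by 0.21 (SE 0.08). In Kyn EXPA18 fell by 1.66 and EXPA7 fell by 0.96, while EXLB1 rose by 0.79. That is 2 of 13 lower, where 3.12% of all genes were, and 1 of 13 higher, where 1.78% were. In BL 1 of 13 was called, EXLA1 at 0.42 (SE 0.11, adjusted p = 0.0455, limma), where 0.929% of all genes were higher.

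Marker lists of root cell types were set beside the members, and rose or fell here means called by limma over the 3 times. In BL+Kyn against mock 18.7% of all tested genes were called higher and 17.6% lower. Of 8 endodermis markers 7 rose, with a summed normalized count of 17080.4 to 30199 in BL+Kyn against 13254 to 19679 in mock. These ranges overlap, and both ends of the BL+Kyn range were libraries of 48 h. Of 8 dividing-cell and meristem markers 6 fell, from 3198 to 4006 in mock to 2565 to 4521 in BL+Kyn, ranges that overlap. Of these 8 markers edgeR called 6 lower and DESeq2 called 4. Of 8 root hair markers 6 fell, from 27957 to 47235 in mock to 3049 to 9011 in BL+Kyn. Of 5 xylem markers 2 rose (1362 to 2588 in mock, 1950.1 to 3512 in BL+Kyn), and these ranges overlap. Of 4 root cap markers 1 rose and 1 fell, and of 10 photosynthesis genes 0 were called by limma, edgeR or DESeq2, with 0 at an unadjusted p under 0.05. The fitted spread of these 10 genes includes the photosynthesis-rich libraries, so the tests cannot show whether they changed in BL+Kyn. Their summed normalized count was 2188 to 5010 in mock and 2942 to 6801 in BL+Kyn. In Kyn alone 6 of 8 root hair markers and 4 of 5 xylem markers fell, where 3.12% of all tested genes were called lower. The part of a changed cell make-up in the results of the members was not tested.

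The authors' deposited table gives each treatment against mock at each time. In the authors' deposited table BL and Kyn had no member with an adjusted p under 0.05 at any time. The share over all genes in that table was not computed. At 12, 24 and 48 h the single-time limma fits called 18, 20 and 41 of 18948 genes in BL. They called 243, 165 and 222 in Kyn, and 952, 3457 and 4435 in BL+Kyn. For BL+Kyn the authors' deposited table had EXPA8 higher at all 3 times (1.72, 1.5 and 1.77 on the log2 scale) and EXPA17 likewise (1.36, 1.5 and 1.11), and EXPA15 lower at all 3 (-0.62, -1.42 and -0.75). In the authors' deposited table EXPA11 was lower at 12 h (-0.86) and 24 h (-0.60), EXPA4 lower at 24 h (-0.84) and higher at 48 h (0.71), and EXPA1 (1.39) and EXPA10 (0.87) higher at 48 h. The single-time limma fits did not call EXPA11 at 24 h (adjusted p = 0.0857). At 48 h they did not call EXPA4 (adjusted p = 0.118) or EXPA10 (adjusted p = 0.0753). The deposited log2 changes listed here were smaller in size than the limma ones, most of all for EXPA10 at 48 h (0.87 against 2.03). They are not plain ratios of means, so the sizes are not like measures. For EXPA5 in Kyn at 12 h the deposited change was 0.14, where the mean normalized count was 12.72, against 0.64 in mock.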

How the data were processed

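Normalized counts, a linear signal per gene and library, were used as deposited. The submitters' processing notes name the TAIR10 build and, without order, TopHat2 2.1.0, HTSeq 0.6.1, DESeq2 1.18.1, cutadapt 1.10, Trim Galore and FastQC 0.11.5. Collapsing of molecular barcodes and the strand counted are not given in the sources used here. Per the file headers, a second deposited table holds log2 fold changes and adjusted p-values per treatment and time. Dividing each library by its unit gave whole reads (within 0.1) for 100% of low values, and edgeR 4.0.16 and DESeq2 1.42.0 were run on those reads as alternatives. Depth was 6.32 M to 31.37 M reads, and counting floors cover counting error only.

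A limma-trend model (limma 3.58.1, R 4.3.3) with 12 group means and 12 residual degrees of freedom was fitted to log2(normalized count + 1) of the 18948 genes whose mean reached 5, a scale that understates the change of low genes such as EXPA10. P-values were adjusted by Benjamini-Hochberg over all of them and measure the spread between libraries, which the labels call biological replicates without saying how plants were divided. The fitting code was also run on simulated counts with known changed genes. These held no library standing apart, so that run does not show how the fits behave on these libraries. Gene coordinates are those of the deposited table (TAIR10). Upstream sequence and coding identity came from the TAIR10.1 reference (Python 3.11.15, Biopython 1.88). Of the file's protein-coding genes 99.5% lay within its gene boundaries, with 500 bases of slack, but only 47.5% had a boundary exactly equal. Upstream windows and motif distances were taken from the reference start. For EXPA10 that start was 9259432, where the deposited start was 9259605.

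All 10 members are named, other expansins where called against mock, and the 2 most similar genes of each member called against mock over the 3 times. The members, lists and tests were chosen with earlier results of these data known. Alternatives were other pseudocounts, filters, scalings and tools, a replicate term, fewer times and fewer libraries. Same-numbered libraries deviated together (r over 0.1) in 9 of 66 pairs of groups, with r from -0.121 to 0.53, so the numbers were not treated as pairs.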

Additional observations from a re-analysis of the deposited data

Results flagged for a closer look

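For 3 members the effect of Kyn differed between roots with and without BL, by a test of the difference itself (the interaction in limma, Benjamini-Hochberg adjusted over 18948 genes). EXPA8 changed with Kyn by 0.33 without BL and by 1.89 with BL, a difference of 1.55 (adjusted p = 0.00839). EXPA1 changed by -0.58 without BL and by 0.69 with BL, a difference of 1.27 (adjusted p = 0.0107), with the sign of the fitted Kyn effect opposite in the 2 backgrounds. EXPA15 changed by -0.08 without BL and by -0.83 with BL, a difference of -0.74 (adjusted p = 0.0157). For EXPA15 the difference was -0.56 without the photosynthesis-rich libraries. All 3 interaction calls were lost when only 12 and 24 h were fitted. The Kyn change of EXPA1 without BL lay at the threshold (adjusted p = 0.0448, limma). With 2 libraries per group, no search was made within groups for a single library that stands out. The photosynthesis-rich libraries were told apart by comparison with all other libraries.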

How the results depend on the processing

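For 9 tested members in 6 comparisons, 35 alternative settings gave 1884 values. Of these 1744 kept direction and side of the threshold, 48 lost a call, 12 gained a call, 80 turned the sign of a value that was not called under either setting, and 0 turned the sign of a called value. The 5 calls in BL+Kyn against mock were kept under all 35. The number of members called stayed within 1.5 times of the reported number except as follows, and where no construction shows it the cause was not tested. In BL against mock (1) it was 0 without both photosynthesis-rich libraries, 0 without these and the second library of BL+Kyn at 48 h (a setting chosen after seeing the data), and 2 with only 12 and 24 h; leaving out each library in turn gave 0 to 1. In Kyn against mock (2) it was 0 with no filter, which adds low genes to the adjustment, and 1 without both photosynthesis-rich libraries; leaving out each library gave 0 to 2. The interaction (3) gave 0 with only 12 and 24 h, a fit on fewer libraries, and 3 to 4 when each library was left out. For mock at 48 h against 12 h (0) the added setting gave 1 (EXPA15). For the change of the BL+Kyn response with time (0) the number was 1 with DESeq2 (EXPA4), 1 without both photosynthesis-rich libraries (EXPA15), 1 under the added setting (EXPA15), and 0 to 1 when each library was left out (EXPA4, without the first BL+Kyn library at 48 h). A fit with the replicate number as a block changed no call or count: 1 member in BL, 2 in Kyn and 5 in BL+Kyn against mock. EXPA5 and EXPA10 rest on few reads, so a small change could not be detected in them.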
